A study of Mus musculus with 15 samples.

Results

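The miR-99/100 and miR-125 families are microRNAs (miRNAs) that lie beside let-7 genes in shared clusters. Members were all mouse miRNAs on the array whose name gives miR-99a, miR-99b, miR-100, miR-125a or miR-125b with a 5p or 3p arm, which gave 7 of the 696 mouse miRNAs measured. They are mmu-miR-99a-5p, mmu-miR-99b-5p, mmu-miR-99b-3p, mmu-miR-100-5p, mmu-miR-125a-5p, mmu-miR-125a-3p and mmu-miR-125b-5p, written without the species prefix from here on. miRNAs were measured in the liver of male B6C57/J mice that were 1 year old when the diets began and were kept on them for life. The standard diet group (SD) ate AIN-93G ad libitum, the caloric restriction group (CR) was held to a 40% restriction of AIN-93G, and the metformin group (Met) ate AIN-93G ad libitum with 0.1% w/w metformin. Each group has 5 mice, with 1 array per mouse, and the terms for CR are those of the labels. Total RNA was labeled with Cy3 and read on a 1-color Agilent mouse miRNA array.

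A miRNA guides a silencing complex to messenger RNAs that pair with its seed, the stretch of bases 2 to 8 from its 5′ end, so miRNAs with 1 seed share many possible targets. The miR-125 family is the mammalian counterpart of the worm timing gene lin-4, and miR-125 and let-7 both restrain the developmental regulator Lin28. The miR-99/100 family is known for repressing the growth kinase gene Mtor, and miR-125b has been linked to the p53 network. Liver miRNA samples hold RNA of hepatocytes together with that of endothelial, stellate, blood and other cells, and in such samples fewer cells of a type and less RNA per cell cannot be told apart.

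The mature sequences show which members share a seed and how few bases set the others apart, which bears on how well array probes can separate them. They come from RefSeq, assembly GRCm38.p6, where all 7 members matched by name, and run 5′ to 3′ with the seed in capitals. The first 3 share the seed ACCCGUA.
miR-99a-5p: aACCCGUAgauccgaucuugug
miR-100-5p: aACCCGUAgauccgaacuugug
miR-99b-5p: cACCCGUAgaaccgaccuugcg
The next 2 share the seed CCCUGAG.
miR-125a-5p: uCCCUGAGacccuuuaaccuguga
miR-125b-5p: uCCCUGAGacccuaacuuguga
The 3p arms of miR-99b and miR-125a have seeds of their own.
miR-99b-3p: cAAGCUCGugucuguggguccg
miR-125a-3p: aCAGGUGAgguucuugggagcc
The let-7 partners of the clusters share the seed GAGGUAG.
let-7a-5p: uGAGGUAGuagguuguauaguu
let-7c-5p: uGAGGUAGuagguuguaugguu
let-7e-5p: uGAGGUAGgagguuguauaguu

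Counted from the 5′ end, miR-99a-5p and miR-100-5p differ at 1 of 22 positions (U16A), and miR-99a-5p and miR-99b-5p at 4 (A1C, U11A, U16C and U21C). miR-125a-5p has 24 bases and miR-125b-5p has 22, the first 13 are identical, and 7 of the 22 positions compared differ. let-7a-5p differs from let-7c-5p at 1 position (A19G) and from let-7e-5p at 1 position (U9G). Whether probes for one of these miRNAs also bind its near-identical relatives was not tested.

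The families come from 3 clusters of the mouse genome, each with a miR-99/100 gene, a let-7 gene and a miR-125 gene on 1 strand. Mir99a, Mirlet7c-1 and Mir125b-2 lie on chromosome 16. Mir99b, Mirlet7e and Mir125a lie on chromosome 17 within the gene Spaca6. Mir100, Mirlet7a-2 and Mir125b-1 lie on chromosome 9 within the host transcript Mir100hg. Mature miR-125b-5p can therefore come from 2 clusters, let-7a-5p has another gene on chromosome 13 and let-7c-5p another on chromosome 15, and the array does not tell such sources apart. Of the passenger arms, let-7c-1-3p, miR-125b-1-3p and miR-125b-2-3p were on the array and detected in 0 of 15 mice, so cluster-specific readouts of miR-125b were not measured. The arms miR-99a-3p, miR-100-3p, let-7a-2-3p, let-7c-2-3p and let-7e-3p were not on the array.

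Values are z-scores: median spot signals were taken to the natural log, centered on the mean of all spots on that array, divided by the standard deviation of those spots, and averaged first within a probe and then across the probes for each miRNA. A z-score compares 1 miRNA between mice and does not order different miRNAs by amount, since probes differ in brightness. The scanner software detected miR-99a-5p, miR-99b-3p, miR-100-5p, miR-125a-5p, miR-125a-3p and miR-125b-5p in all 15 mice and miR-99b-5p in 14, all but SD mouse 4. All 7 members were thus among the 178 miRNAs detected on every array of at least 1 group, which were tested with limma. A miRNA met the criteria at a limma p of 0.05 or less, a Benjamini-Hochberg adjusted p of 0.3 or less over the 178, and an absolute Z ratio of 1.5 or more. The Z ratio is the difference between 2 group means divided by the standard deviation of such differences over all 696 miRNAs. The number of arrays limits the precision, and p-values reflect the spread between mice. The arrays lay on 2 slides, slide 1 with all 5 SD mice and Met mice 1 to 3, and slide 2 with all 5 CR mice and Met mice 4 and 5.

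**Figure D1:**
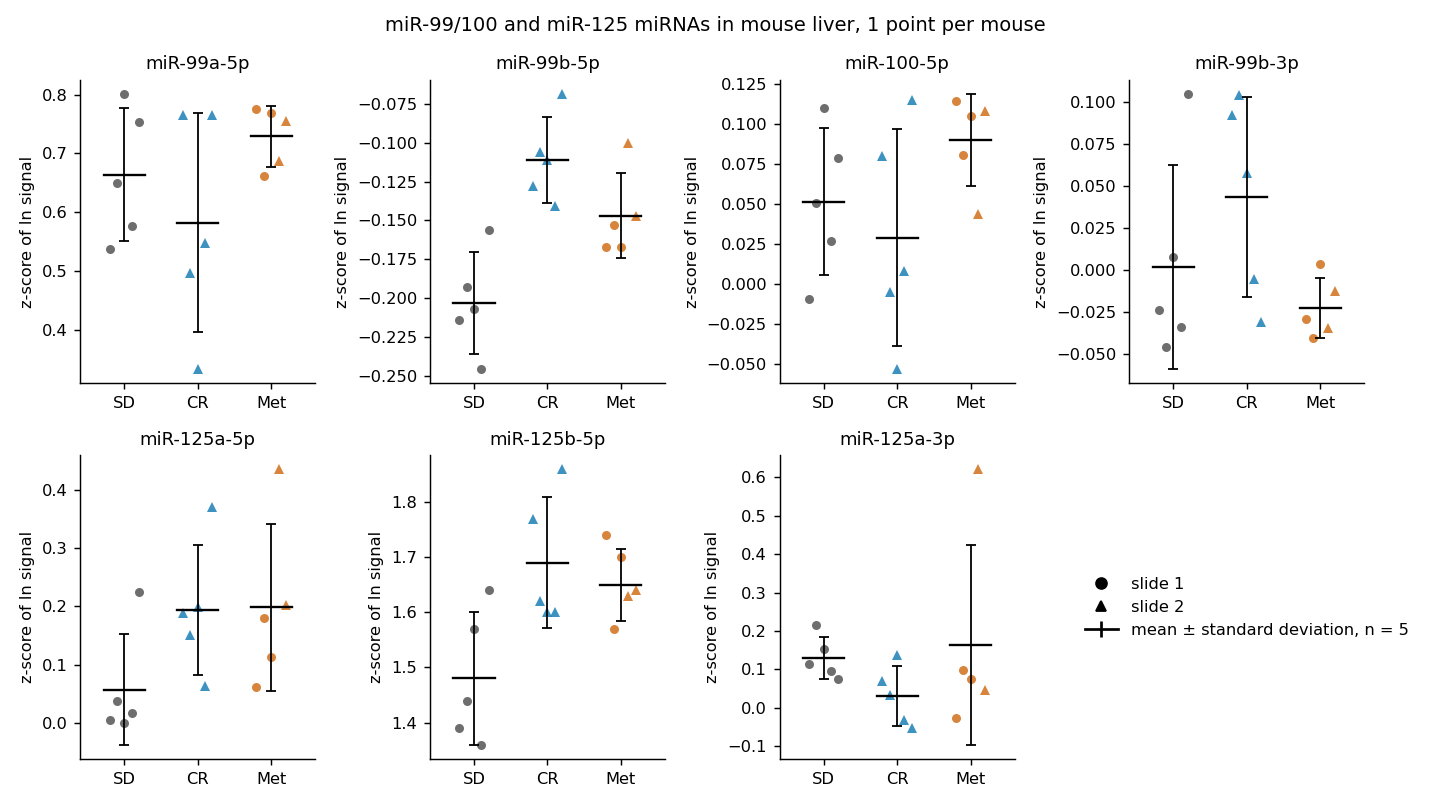
Z-score of the natural log signal (vertical axes, 1 scale per miRNA) of the 7 members in each mouse by diet, with circles for slide 1 and triangles for slide 2; horizontal lines are group means and bars are standard deviations, n = 5 mice per group. For miR-99b-5p all CR mice lie above all SD mice, and for miR-125a-3p Met mouse 4 stands at 0.621 while the other Met mice lie between -0.0276 and 0.0992.

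Between Met and SD, 6 of the 7 members had higher means in Met and 1, miR-99b-3p, had a lower mean. miR-99b-3p turned higher with 75th percentile scaling on detected probes and without SD mouse 5 (difference 0.0013). The higher mean of miR-125a-3p turned lower with the software's total gene signal and without Met mouse 4 (difference -0.0817). It was also lower with the slide as a block and within slide 1 (difference -0.0812 and Z ratio -1.52 in both). The median difference of the members was 0.0565 in z-score, against 0.00838 over the 178 miRNAs, of which 100 were higher in Met. By limma, 0 of the 7 members met the criteria, where 1.12% of the 178 did, and 2 members, miR-99b-5p and miR-125b-5p, reached an unadjusted p of 0.05 or below, as did 6.74% of the 178. With the pairwise test of z-scores, an alternative, the same 2 of 7 did, against 12.9% of the 178, and 1 of them, miR-125b-5p, met all the criteria, against 7.3%. At a limma adjusted p of 0.05 or less with no limit on the Z ratio, 0 of 7 passed, where 0.562% of the 178 did. The groups overlapped for all 7, as they did for all but 2.25% of the miRNAs tested.

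Between CR and SD, 4 members had higher means in CR (miR-99b-5p, miR-99b-3p, miR-125a-5p and miR-125b-5p), a direction kept in every scaling in which each was tested. The other 3 had lower means in CR, and these turned higher in 5 of 8 other scalings for miR-99a-5p, in 4 for miR-100-5p and in 1 for miR-125a-3p. The median difference was 0.042, against -0.0161 over the 178 miRNAs. By limma, 0 of the 7 met the criteria, against 17.4% of all tested, and 2, again miR-99b-5p and miR-125b-5p, reached an unadjusted p of 0.05 or below, where 41.6% of the 178 did. With the pairwise test 4 of 7 did, these and both arms of miR-125a, against 43.3%, and 0 met all the criteria, against 15.2%. At a limma adjusted p of 0.05 or less with no limit on the Z ratio, 1 of 7 members (miR-99b-5p) passed, where 30.9% of the 178 did. It was also the 1 member whose groups did not overlap, against 11.2% of all tested.

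Between CR and Met, 3 members had higher means in CR and 4 lower, but only miR-99b-5p and miR-99b-3p kept their direction in every scaling in which they were tested. miR-125b-5p turned lower in 1 of 8 scalings, and the lower members turned higher in 2 (miR-99a-5p), 3 (miR-100-5p), 5 (miR-125a-5p) and 1 (miR-125a-3p). The median difference was -0.00453, against -0.0292 over the 178. By limma, 0 of 7 met the criteria, against 20.8% of all tested, and 0 reached an unadjusted p of 0.05 or below, where 44.9% of the 178 did. With the pairwise test 2 of 7 did, miR-99b-5p and miR-99b-3p, against 52.8%, and 0 met all the criteria, against 20.2%. With the adjusted p limit of 0.05 alone, 0 of 7 passed, where 34.3% of the 178 did. The groups overlapped for all 7, while 15.2% of the miRNAs tested did not overlap. The 3 comparisons share groups, so their values are not independent of each other.

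**Figure D2:**
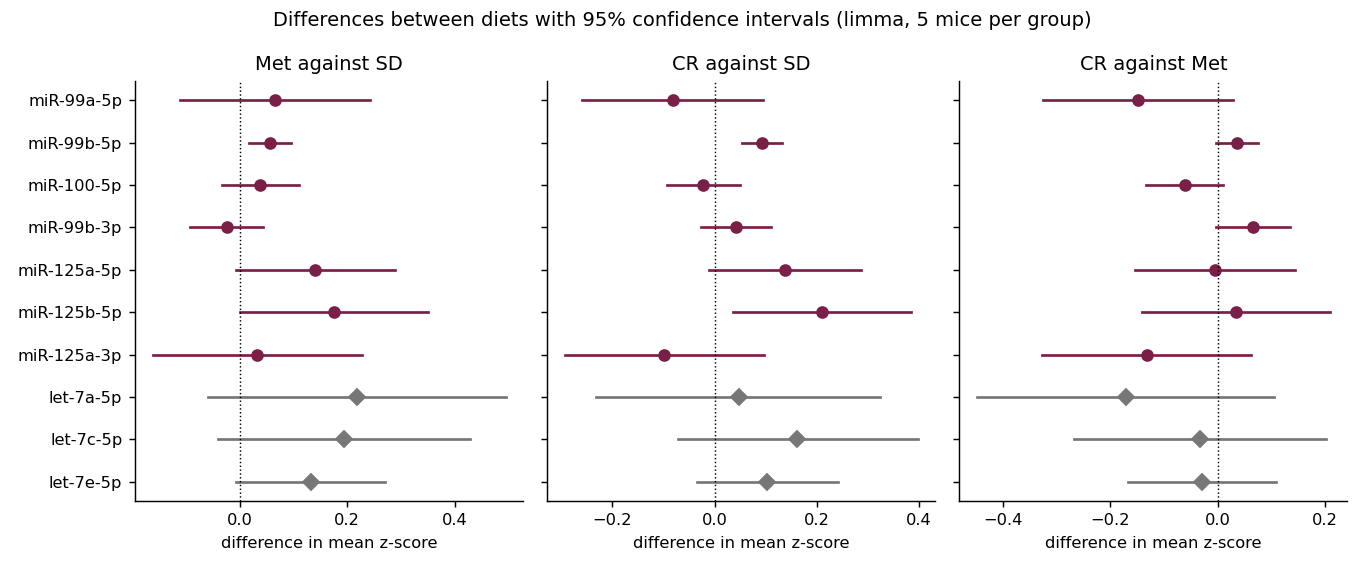
Difference in mean z-score between diets (horizontal axis) with 95% confidence intervals from limma, 5 mice per group, for the 7 members (circles) and the let-7 partners of their clusters (diamonds). Between CR and SD the intervals of miR-99b-5p (0.0528 to 0.132) and miR-125b-5p (0.036 to 0.384) lie above 0, and between CR and Met every interval holds 0.

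miR-125b-5p, whose seed is that of miR-125a-5p, was well above background in every spot on all 15 arrays. Its z-scores were 1.39, 1.44, 1.57, 1.36 and 1.64 in SD mice 1 to 5. In CR mice they were 1.77, 1.62, 1.6, 1.6 and 1.86, and in Met mice 1.74, 1.57, 1.7, 1.63 and 1.64. SD mice 1, 2 and 4 were the lowest of all and SD mouse 5 lay among the treated mice, so SD overlapped both other groups, and the CR and Met ranges overlapped.

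The group means of miR-125b-5p were 1.48 ± 0.121 in SD, 1.65 ± 0.065 in Met and 1.69 ± 0.119 in CR (mean ± standard deviation, n = 5). CR exceeded SD by 0.21 (standard error 0.082, limma adjusted p = 0.0588, Z ratio 1.26), with 5 of 5 CR mice above the SD median, and did not reach the Z ratio limit. The two-sided exact permutation p of this difference was 0.0397. The difference met the criteria in 7 of 32 other settings, given here with the share of the 178 miRNAs that met them in the same setting. They were 75th percentile scaling on detected probes (Z ratio 2.58, 67.4%), the background-subtracted signal (1.99, 40.4%) and quantile normalization (3.34, 23.6%). The others were z-scores over detected miRNAs (2.08, 21.3%), the brightest probe (1.71, 18.5%) and the data without CR mouse 2 (1.56, 14.6%) or CR mouse 3 (1.64, 16.3%). With the slide as a block, which rests on the Met mice alone to link the slides, the difference was 0.246 (standard error 0.152, limma adjusted p = 0.315). A comparison of CR and SD within 1 slide was not possible.

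Met exceeded SD in miR-125b-5p by 0.176 (95% confidence interval 0.00132 to 0.35), with 5 of 5 Met mice above the SD median. The Z ratio of 2.88 passed its limit but the limma adjusted p of 0.673 did not, and the exact permutation p was 0.0556. Within slide 1, 3 Met mice averaged 1.67 and 5 SD mice 1.48 (exact permutation p = 0.107). Without SD mouse 5, the SD mouse nearest the Met mice, the difference was 0.215 and met the criteria at a limma adjusted p of 0.281, and leaving out each mouse in turn gave adjusted p from 0.281 to 1.0. CR and Met differed by 0.0347 (95% confidence interval -0.14 to 0.209).

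miR-125a-5p, the seed partner of miR-125b-5p, had z-scores of 0.00633, 0.0382, -0.000193, 0.0173 and 0.225 in SD mice 1 to 5. The CR mice had 0.189, 0.151, 0.199, 0.0629 and 0.37, and the Met mice 0.062, 0.18, 0.114, 0.435 and 0.203. In SD, 4 mice lay below every CR and Met mouse, and SD mouse 5 lay within both other groups. The highest values were those of Met mouse 4 and CR mouse 5.

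Met exceeded SD in miR-125a-5p by 0.141 (standard error 0.07, Z ratio 2.32, limma adjusted p = 0.679), with 5 of 5 Met mice above the SD median. The call turned on single mice: without SD mouse 5 the difference was 0.183 and met the criteria at a limma adjusted p of 0.281, and without Met mouse 4 it was 0.0823 (Z ratio 1.49). Within slide 1 the difference was 0.0612 (exact permutation p = 0.357). CR exceeded SD by 0.137 (standard error 0.07, Z ratio 0.823, limma adjusted p = 0.153), and with the slide as a block the difference was -0.0635 (standard error 0.11), of opposite sign. That sign rests on Met mouse 4: with the mouse left out, in a setting chosen after seeing the data, the block gave 0.0524 (standard error 0.12). Its 2 probes followed each other closely over the 15 arrays (Pearson r = 0.993 between probes of 1 miRNA).

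miR-125a-3p is the opposite arm of the same hairpin, with the unrelated seed CAGGUGA. SD mice 1 to 5 had z-scores of 0.114, 0.215, 0.152, 0.0948 and 0.0753, and CR mice 0.0705, 0.034, 0.138, -0.0313 and -0.0535. Met mice had -0.0276, 0.0992, 0.0755, 0.621 and 0.0468. Met mouse 4 stood far above all other mice, 4 of 5 CR mice lay below every SD mouse, and the CR and SD ranges overlapped through CR mouse 3.

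The high value of Met mouse 4 in miR-125a-3p was present in the software's background-subtracted total gene signal too, with 163 against 39.4 to 57.6 in the other Met mice. All 4 probes gave the same direction of the Met and SD difference. That difference was 0.0328 (Z ratio 0.539, limma adjusted p = 0.93) with Met mouse 4, and -0.0817 (Z ratio -1.47, limma adjusted p = 0.793) without it. CR was lower than SD by a difference of -0.0986 (standard error 0.0916, limma adjusted p = 0.435, exact permutation p = 0.0556). Met mouse 4 enters that standard error through the spread shared by the 3 groups, and without it the same difference had a standard error of 0.0408 and a limma adjusted p of 0.0743, with the Z ratio of -0.593 still inside its limit.

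With the slide as a block, miR-125a-3p met the criteria as lower in CR, with a difference of -0.384 from SD (Z ratio -2.14, limma adjusted p = 0.218) and of -0.302 from Met (Z ratio -1.81, limma adjusted p = 0.0798). Met mouse 4 is 1 of the 2 Met arrays on slide 2. In a setting chosen after seeing the data, with that mouse left out, the same block gave -0.0964 (Z ratio -0.474) and -0.0153 (Z ratio -0.0793), and the criteria were not met.

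miR-99b-5p, which shares the seed of miR-99a-5p and miR-100-5p, comes from the cluster in Spaca6. Its z-scores were -0.214, -0.193, -0.207, -0.246 and -0.156 in SD mice 1 to 5, and -0.128, -0.106, -0.111, -0.141 and -0.0683 in CR mice. In Met mice they were -0.167, -0.153, -0.167, -0.1 and -0.147. All 5 CR mice lay above all 5 SD mice, and the Met mice lay between and overlapped both. The SD mice were all on slide 1 and the CR mice all on slide 2. The 3 Met mice on slide 1 ran from -0.167 to -0.153, and the 2 on slide 2 lay higher, at -0.147 and -0.1.

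CR exceeded SD in miR-99b-5p by 0.0922 (standard error 0.0186, limma adjusted p = 0.00932), with an exact permutation p of 0.00794, the smallest that 5 against 5 mice can give. On the reported z-scores, which are not background-subtracted, the Z ratio was 0.555, well under its limit. The difference there exceeded the spread between mice but was small on the scale of all miRNAs. With the background-subtracted signal the Z ratio was 2.92 and the criteria were met, where 40.4% of the 178 miRNAs met them. With 75th percentile scaling on detected probes it was 2.62 and they were met, where 67.4% did. miR-99b-5p was detected in 4 of 5 SD mice and in 5 of 5 CR and Met mice. It was thus tested by way of the groups where it is higher, and with no filter the limma adjusted p was 0.0149. Leaving out each mouse in turn kept the limma adjusted p between 0.00246 and 0.0296. With the slide as a block the difference was 0.0541 (standard error 0.0315, limma adjusted p = 0.289). Met exceeded SD by 0.0565 (limma adjusted p = 0.237, Z ratio 0.928), and within slide 1 by 0.0413 (exact permutation p = 0.107).

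The signal of miR-99b-5p was near background: on 0 of 15 arrays were all of its spots well above background, and on SD mouse 4 none was. The 470 miRNAs detected on 0 arrays, whose signal lies at background, were also slightly higher in CR than in SD, 463 of them, with a median difference of 0.0284, and 0 of the 470 differed by 0.0922 or more. Measured above the median of these undetected miRNAs on the same array, miR-99b-5p stood at 0.126, 0.13, 0.132, 0.086 and 0.182 in SD mice 1 to 5. On that scale the CR mice had 0.195, 0.178, 0.165, 0.161 and 0.264. SD mouse 5 then lay above CR mice 2, 3 and 4, and the groups overlapped. Between CR and Met, where miR-99b-5p differed by 0.0357, 459 of the 470 were higher in CR, with a median of 0.0257, and 21.3% of them differed by 0.0357 or more. The part of these background shifts in the differences was not tested.

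miR-99a-5p had z-scores of 0.537, 0.649, 0.802, 0.577 and 0.753 in SD mice 1 to 5. CR mice had 0.766, 0.496, 0.332, 0.548 and 0.765, and Met mice 0.775, 0.661, 0.768, 0.687 and 0.755. CR split into mice 1 and 5, level with the highest Met mice, and mice 2, 3 and 4, which lay below every Met mouse. The standard deviation was 0.0516 for Met, 0.113 for SD and 0.186 for CR. The groups overlapped in all comparisons.

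miR-100-5p, 1 base apart from miR-99a-5p, had z-scores of -0.00929, 0.0509, 0.11, 0.0269 and 0.0784 in SD mice 1 to 5. CR mice had 0.0797, -0.00487, -0.0532, 0.00837 and 0.115, and Met mice 0.114, 0.0804, 0.105, 0.0439 and 0.108. The 5 mice with the lowest values were those of miR-99a-5p as well, CR mice 2, 3 and 4 and SD mice 1 and 4. Its 2 probes were less alike than those of the other members with 2 probes (r = 0.523 over the arrays), and between CR and SD they gave opposite signs (-0.0615 and 0.0167).

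In order of the group means, Met was highest, SD next and CR lowest for both miR-99a-5p (0.729, 0.664 and 0.582) and miR-100-5p (0.0901, 0.0514 and 0.029), and no neighbours in that order differed beyond their spread. CR and Met, the ends of that order, differed by -0.148 in miR-99a-5p (95% confidence interval -0.325 to 0.0292, limma adjusted p = 0.165). For miR-100-5p the same difference was -0.0611 (95% confidence interval -0.133 to 0.0104, limma adjusted p = 0.163). Within slide 2, 5 CR mice averaged 0.582 and 2 Met mice 0.721 for miR-99a-5p (exact permutation p = 0.571), and 0.029 and 0.0757 for miR-100-5p (exact permutation p = 0.476). The order rests on the scaling, as given above for each comparison. miR-100-5p had some spots below the limit for signal well above background on every array.

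miR-99b-3p had group means of 0.00154 in SD (range -0.0462 to 0.105), 0.0435 in CR (-0.0309 to 0.104) and -0.0229 in Met (-0.0409 to 0.00316). The Met mice lay close together, CR mice 1, 2 and 3 lay above all of them, and SD mouse 5 was the highest mouse of all. CR and Met differed by 0.0664 (standard error 0.0323, limma adjusted p = 0.122, Z ratio 0.428). Within slide 2 the means were 0.0435 in 5 CR mice and -0.0237 in 2 Met mice (exact permutation p = 0.19). Its 4 probes gave the same direction in each comparison.

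The level of the families between CR and the other diets moved with the scaling of the arrays. 75th percentile scaling on detected probes shifted the median of all 178 miRNAs by 0.372 (log2) for CR against SD and by 0.305 for CR against Met, and the background-subtracted signal by 0.307 and 0.182, and by 0.105 between Met and SD. With the former, 7 of 7 members were higher in CR in both comparisons and 5 met the criteria in each, where 67.4% and 65.2% of all miRNAs did. Relative to the shifted median, 5 of 7 members lay above it for CR against SD and 3 of 7 for CR against Met. The median of the members was 0.455 and 0.297 in these comparisons.

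**Figure D3:**
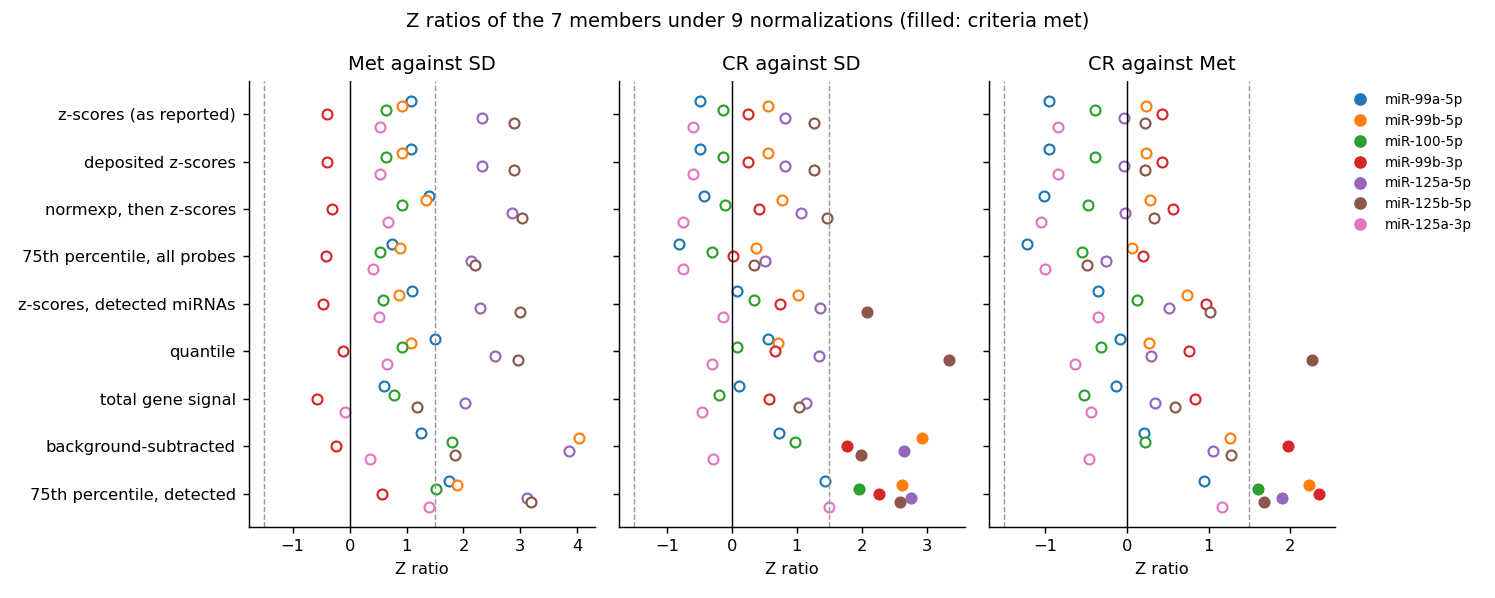
Z ratio (horizontal axes) of the 7 members in each comparison under the reported z-scores and 8 other normalizations, with filled circles where the criteria were met and dashed lines at the limits of -1.5 and 1.5. Between CR and SD the filled circles number 0 with the reported z-scores, 4 with the background-subtracted signal (40.4% of all 178 miRNAs) and 5 with 75th percentile scaling on detected probes (67.4%), and miR-100-5p turns from -0.135 to 1.95.

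The let-7 partners come from the same clusters as the members, and let-7 represses Lin28 as miR-125 does. let-7e-5p, from the cluster with miR-99b and miR-125a, had z-scores of 0.0552, 0.0823, 0.103, 0.0667 and 0.268 in SD mice, 0.212, 0.0883, 0.164, 0.167 and 0.459 in CR mice and 0.169, 0.236, 0.192, 0.381 and 0.257 in Met mice. As for miR-125a-5p, SD mouse 5 stood apart from the other SD mice, CR mouse 5 and Met mouse 4 were the 2 highest, and the groups overlapped. Met exceeded SD by 0.132 (Z ratio 2.17, limma adjusted p = 0.679). let-7c-5p exceeded SD by 0.195 in Met (Z ratio 3.2) and by 0.162 in CR (Z ratio 0.975), and let-7a-5p by 0.218 (Z ratio 3.58) and 0.0468 (Z ratio 0.281). By limma, 0 of these 3 partners met the criteria in any comparison as reported. Without SD mouse 5, let-7c-5p and let-7e-5p met them between Met and SD (limma adjusted p = 0.281 for both), where 5.06% of the 178 did. Between CR and SD, let-7c-5p met them in 4 of 32 other settings and let-7e-5p in 2. Both did with 75th percentile scaling on detected probes and with the background-subtracted signal, where 67.4% and 40.4% of the 178 did. let-7c-5p also did with quantile normalization (23.6%) and z-scores over detected miRNAs (21.3%). With 75th percentile scaling of all probes, let-7a-5p and let-7c-5p were lower in CR than in SD (-0.221 and -0.0786 in log2). With the pairwise test of z-scores 2 partners met the criteria between Met and SD, let-7a-5p and let-7e-5p, where 7.3% of the 178 did, and 0 in the others.

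Of the whole let-7 family with miR-98-5p, 9 miRNAs with 1 seed, 9 of 9 were higher in Met than in SD, in every scaling, and 0 met the criteria or had an unadjusted limma p of 0.05 or less. Between CR and SD, 2 of 9 met the criteria, where 17.4% of the 178 miRNAs did, let-7b-5p higher (Z ratio 1.85, limma adjusted p = 0.0438) and let-7f-5p lower (Z ratio -3.42, limma adjusted p = 0.0598), both directions kept in all 8 other scalings. Between CR and Met, 2 of 9 met them, where 20.8% of the 178 did, let-7f-5p (Z ratio -4.34) and let-7g-5p (Z ratio -2.64), both lower in CR in all scalings. The count of members meeting the criteria was 0 in both comparisons with CR, and the difference between the families was not tested.

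Members of 1 cluster can be made from 1 primary transcript, so their values were compared mouse by mouse, over 10 pairs: 9 within the clusters and the 2 arms of miR-125a. A pair was called where both Pearson's r and Spearman's rho had a permutation p, adjusted over the 10 pairs by Benjamini-Hochberg, of 0.05 or less, which held for 7 of 10. Over all 15753 pairs of the tested miRNAs the median r was 0.0312, and 25.0% exceeded 0.5, while over the 10 pairs the median was 0.722 and 8 of 10 exceeded 0.5. The share of all pairs that would pass the rule for a call was not computed. For the 21 pairs among the members the median was 0.138, and 23.8% exceeded 0.5.

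let-7e-5p and miR-125a-5p had the highest r of the 10 pairs, though not the highest rho, with r = 0.905 (permutation p = 3e-05, adjusted p = 0.0002) and rho = 0.857 (permutation p = 7e-05, adjusted p = 0.00035) over 15 mice. Without Met mouse 4 and CR mouse 5, r was 0.801, and within the slides it was 0.95 (8 mice, exact p = 0.000322) and 0.86 (7 mice, exact p = 0.0171). miR-99b-5p, the third miRNA of that cluster, had r = 0.825 with miR-125a-5p (rho = 0.821, adjusted permutation p = 0.0005 and 0.00117). Its r was 0.731 with let-7e-5p (rho = 0.632, adjusted permutation p = 0.00366 and 0.0189), which fell to 0.556 without CR mouse 5 and SD mouse 4. All 3 pairs of this cluster were called. Over the other settings let-7e-5p and miR-125a-5p were called in 28 of 29 (r from 0.801 to 0.989). The pair of miR-99b-5p and miR-125a-5p was called in 27 of 28 (r from 0.695 to 0.946), and miR-99b-5p and let-7e-5p in 22 of 28 (r from 0.521 to 0.947). Within slide 1, the r of miR-99b-5p was 0.81 with miR-125a-5p and 0.891 with let-7e-5p (8 mice, exact p = 0.0149 and 0.00494). Within slide 2, the r of miR-99b-5p was 0.695 with miR-125a-5p and 0.58 with let-7e-5p (7 mice, exact p = 0.0845 and 0.177).

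In the cluster on chromosome 16, let-7c-5p and miR-125b-5p had r = 0.885 (rho = 0.871, adjusted permutation p = 0.0002 and 0.0003). It was 0.827 without SD mice 1 and 2, and 0.954 and 0.738 within slides 1 and 2. For miR-99a-5p, r was 0.585 with let-7c-5p (rho = 0.711, adjusted permutation p = 0.0291 and 0.00618) and 0.472 with miR-125b-5p (rho = 0.586, adjusted permutation p = 0.0834 and 0.0304), a pair that was not called. Without CR mice 2 and 3, the mice farthest from the median of miR-99a-5p, these were 0.731 and 0.732. Within slide 1 they were 0.902 and 0.872, and within slide 2 0.867 and 0.66. Over 29 other settings let-7c-5p and miR-125b-5p were called in 28, miR-99a-5p and let-7c-5p in 17 (r from 0.352 to 0.923) and miR-99a-5p and miR-125b-5p in 6.

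In the cluster on chromosome 9, miR-100-5p and let-7a-5p had r = 0.793 (rho = 0.725, adjusted permutation p = 0.0018 and 0.00592), and let-7a-5p and miR-125b-5p r = 0.712 (rho = 0.811, adjusted permutation p = 0.00432 and 0.00127). miR-100-5p and miR-125b-5p had r = 0.523 (rho = 0.571, adjusted permutation p = 0.0569 and 0.0326) and were not called. Without the 2 mice farthest from the median of the first miRNA, r was 0.744, 0.783 and 0.523 for these 3 pairs. Within slide 1 it was 0.87, 0.945 and 0.881, and within slide 2 0.817, 0.574 and 0.713. The pair of miR-100-5p and let-7a-5p lost its call with 75th percentile scaling on detected probes (r = 0.0927, rho = -0.0143) and with z-scores over detected miRNAs (r = 0.254, rho = 0.025), and was called in 23 of 29 other settings. The pair of let-7a-5p and miR-125b-5p lost it in the same 2 scalings and was called in 25 of 29, while miR-100-5p and miR-125b-5p gained a call in both and were called in 9, with r from -0.128 (total gene signal) to 0.881. Taken as deviations from the group means, 8 of the 10 pairs were called. Several pairs share a member, and miR-125b-5p and let-7a-5p each have more than 1 gene, so the pairs are not separate readouts of 3 transcripts.

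The relation of the 2 arms of miR-125a rested on the scaling and on single mice, and was called in 1 of 29 other settings. As reported, their r was 0.391 and their rho -0.196 (adjusted permutation p = 0.15 and 0.483), and without CR mouse 5 and Met mouse 4 r was -0.174. Within slide 1 it was -0.289 (exact p = 0.483) and within slide 2 0.64 (exact p = 0.124). The 1 setting with a call was 75th percentile scaling on detected probes, with r = 0.843 and rho = 0.661 (adjusted permutation p = 0.0002 and 0.0117), and r ran from -0.43 to 0.843 over the settings. Met mouse 4 was the highest mouse for both arms, while CR mouse 5 was second highest for miR-125a-5p and lowest for miR-125a-3p.

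**Figure D4:**
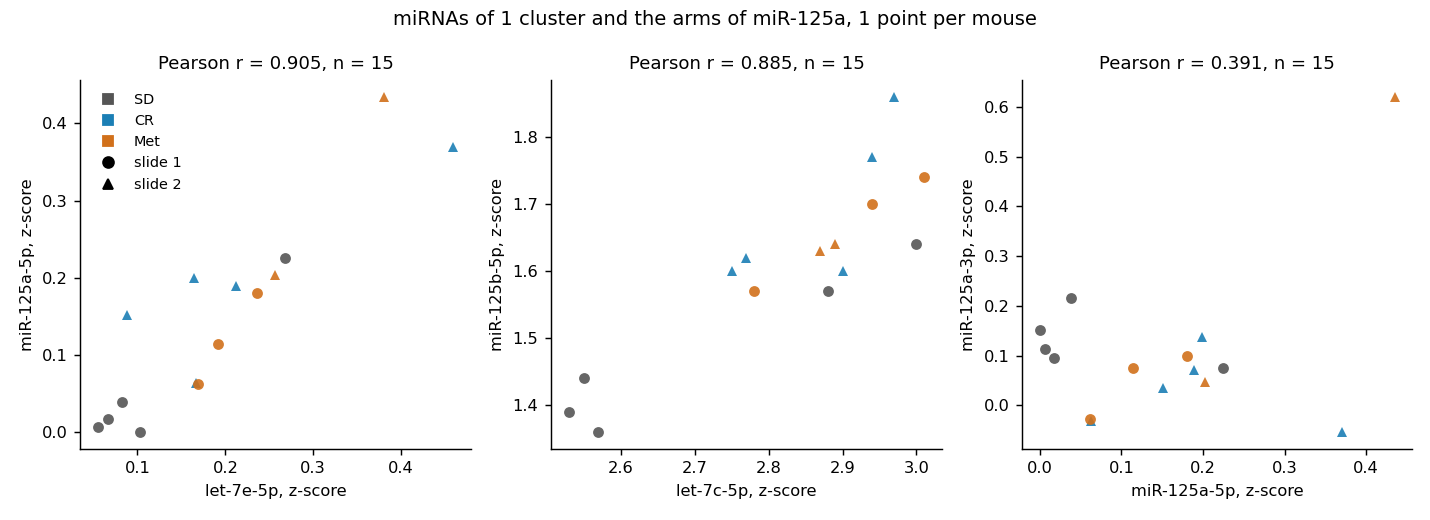
Z-scores of 2 miRNAs in each of 15 mice, colored by diet, with circles for slide 1 and triangles for slide 2: let-7e-5p and miR-125a-5p (r = 0.905), let-7c-5p and miR-125b-5p (r = 0.885), and the 2 arms of miR-125a (r = 0.391). In the third panel Met mouse 4 lies alone at 0.621 on the axis of miR-125a-3p.

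Among all tested miRNAs outside the members, those with the profile most like each member over the 15 mice are given as a description. For miR-125a-5p they were let-7e-5p (r = 0.905), miR-652-3p (0.701) and miR-139-5p (0.664), and for miR-125b-5p let-7c-5p (0.885), let-7b-5p (0.849) and miR-92a-3p (0.807). miR-99a-5p was most like miR-23b-3p (0.964), let-7i-5p (0.953) and miR-25-3p (0.938). miR-100-5p shared the first 2 of these (0.935 and 0.903), followed by miR-30a-3p (0.894). miR-99b-5p was nearest to miR-139-5p (0.842), miR-92a-3p (0.768) and miR-181a-5p (0.761). The 3p arms had nearest profiles of their own, miR-155-5p (0.856), miR-3072-5p (0.782) and miR-744-5p (0.769) for miR-99b-3p, and miR-188-5p (0.903), miR-135a-1-3p (0.883) and miR-3472 (0.844) for miR-125a-3p.

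The liver label was checked against miRNAs that mark cell types, summed per mouse as the software's total gene signal, which is background-subtracted and not scaled between arrays. The hepatocyte markers miR-122-5p, miR-192-5p and miR-194-5p, 3 of 4 listed and on the array, were detected in all mice, and miR-122-5p was the brightest. Their sum was 18800, 18900, 29600, 20700 and 28500 in SD mice 1 to 5, 26000, 15200, 10500, 18100 and 27700 in CR mice, and 26200, 24600, 26400, 26100 and 29800 in Met mice. CR mice 2 and 3 had the lowest sums, as for miR-99a-5p. Of the 3, miR-192-5p and miR-194-5p met the criteria as lower in CR against both SD and Met, and 0 did between Met and SD. miR-122-5p did not meet them and had a higher mean in CR than in SD (z-score 6.29 against 6.07, Z ratio 1.31, limma adjusted p = 0.155).

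The other lists had CR mice 2 and 3 low as well. The endothelial markers (2 on the array, miR-126-3p the brighter) summed to 218 and 216 in CR mice 2 and 3, and to 809, 471 and 839 in CR mice 1, 4 and 5. SD mice had 651, 648, 886, 620 and 856, and Met mice 788, 665, 758, 848 and 877. Of these markers, miR-126-3p met the criteria as lower in CR than in Met (Z ratio -2.72, limma adjusted p = 0.0852). miR-126-5p did not meet them, with limma adjusted p of 0.0154 and 0.0262 and Z ratios of -0.911 and -0.828 for CR against SD and against Met. The erythrocyte markers (2 of 3 listed on the array, miR-451a the brighter) summed to 681, 265, 726, 405 and 408 in SD mice, 349, 33.9, 44.6, 270 and 788 in CR mice and 621, 291, 507, 419 and 401 in Met mice. miR-451a was the 1 erythrocyte marker tested and did not meet the criteria.

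The leukocyte markers (5 on the array, 3 tested, miR-223-3p the brightest) summed to 144, 150, 194, 108 and 135 in SD mice, 112, 35, 18.7, 70 and 158 in CR mice and 111, 164, 118, 214 and 217 in Met mice. The stellate and other mesenchymal markers (5 on the array, all tested, miR-199a-3p the brightest) summed to 181, 195, 229, 171 and 181 in SD mice, 175, 71.8, 60.7, 117 and 336 in CR mice and 230, 189, 178, 251 and 250 in Met mice. By limma, 0 markers of either list met the criteria in any comparison. The leukocyte marker miR-142-3p had limma adjusted p of 0.0159 and 0.0142 and Z ratios of -0.975 and -1.22 for CR against SD and against Met. Of the 3 leukocyte markers tested, 1, miR-155-5p, was higher in CR in both comparisons (Z ratio 0.21 in each). The mesenchymal marker miR-199a-3p was lower in CR than in Met (limma adjusted p = 0.0489, Z ratio -1.3), while 2 of the 5 mesenchymal markers were higher in CR. CR mouse 5 had the highest mesenchymal sum, and CR mice 2 and 3 the lowest sums of these lists. On the same unscaled total gene signal, miR-125b-5p was 686, 474, 412, 507 and 785 in CR mice 1 to 5. SD mice had 458, 447, 615, 425 and 597, and Met mice 675, 557, 624, 621 and 643. In z-scores, which are scaled within each array, CR mice 1 to 5 ranked 2, 8, 10, 9 and 1 of 15 from the highest for miR-125b-5p. The sums and the z-scores are thus on unlike scales.

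The biliary and other epithelial markers had the weakest signal: miR-200c-3p, miR-141-3p and miR-429-3p were detected in 0 mice, and miR-200b-3p, the brightest, was the 1 tested and did not meet the criteria. Their sum was 8.45, 19.2, 8.91, 15.2 and 10.7 in SD mice, 12.1, 0.5, 0.5, 9.15 and 40.7 in CR mice and 10.8, 0.5, 20.7, 27.7 and 22.2 in Met mice. The part of cell composition and of array signal in the values of the miR-99/100 and miR-125 families was not tested.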

How the data were processed

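For every array the authors deposited scanner files with intensity values for spots and local background, not normalized between arrays. They also deposited a score per spot and array, which equaled z-scores of the natural log median signal over all spots, background not subtracted, to within 0.0005. Here the z-scores were recomputed from these files, outlier spots were left out, and 178 of 696 miRNAs were tested.

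The 3 comparisons used limma 3.58.1 in R 4.3.3, 1 fit over 15 arrays with variances that follow the mean, checked on simulated data. limma took the place of the pairwise z-test of the paper's methods, whose limits were kept. Correlations used 100000 permutations, or exact ones within a slide. Tables and plots used scipy 1.17.1, pandas 2.3.3, numpy 2.4.6 and matplotlib 3.10.9 under Python 3.11.15. The replicate numbers were not taken to pair mice.

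Members and lists were chosen with earlier results of these data known. Named are the members, their let-7 partners and family, the marker lists and, for each member, the 3 tested miRNAs most like it.

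Alternatives were other scalings (75th percentile of detected or all probes, quantile, z-scores of detected miRNAs, normexp with an offset of 50, background-subtracted signal floored at 0.01 after scaling, deposited table, total gene signal), other filters, outlier spots kept, the brightest probe, fits of 2 groups, the z-test, an adjusted p limit of 0.05, replicate or slide as a block, 1 slide only and leaving out each mouse. Leaving out Met mouse 4 with the slide as a block, and Met mouse 4 and CR mouse 5 in the pairs, were chosen after seeing the data. Gene names and neighbors come from GRCm38.p6, a build other than that of the array annotation, so coordinates are left out.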

Additional observations from a re-analysis of the deposited data

Results flagged for a closer look

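In 4 of 48 groups of 5 mice (the members, let-7 family and diets checked), 1 mouse stood far from the others by Dixon's test, which chance gives in about 1 in 20 groups. SD mouse 5 was high for miR-125a-5p, at 0.225 in z-score with the other SD mice between -0.000193 and 0.0382, and for let-7e-5p of the same cluster, at 0.268 with the others between 0.0552 and 0.103. Met mouse 4 was high for miR-125a-3p, at 0.621 with the other Met mice between -0.0276 and 0.0992, and for miR-99b-5p, at -0.1 with the others between -0.167 and -0.147. All 4 are miRNAs of the cluster in Spaca6. What sets these mice apart was not tested.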

How the results depend on the processing

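The counts of members meeting the criteria were 0 as reported; shares in parentheses are of the 178 miRNAs in the same setting. Between Met and SD the pairwise z-test gave 1 (7.3%), and leaving out each mouse gave 0 to 2, with miR-125a-5p and miR-125b-5p called without SD mouse 5 (5.06%). Between CR and SD, 75th percentile scaling on detected probes gave 5 (67.4%), the background-subtracted signal 4 (40.4%), and z-scores over detected miRNAs (21.3%), the brightest probe (18.5%), quantile normalization (23.6%), the slide as a block (9.55%) and an adjusted p limit of 0.05 alone (30.9%) gave 1 each, while leaving out each mouse gave 0 to 1, with 1 without CR mouse 2 (14.6%) or CR mouse 3 (16.3%). Between CR and Met, the same scaling gave 5 (65.2%), the background-subtracted signal (42.7%), quantile normalization (27.0%) and the slide as a block (19.1%) 1 each, and leaving out each mouse 0. Of the 10 pairs, 7 were called as reported, 4 with quantile normalization, 0 on slide 2 only (7 mice) and 5 to 9 when leaving out each mouse, and 3 of 8 with the total gene signal; these counts do not say which pairs. In each case the cause was not tested.

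Of 1004 alternative values of the 30 Z ratios of members and let-7 partners, 948 did not meet the criteria and had no change of sign larger than the spread between mice, 34 met them in the reported direction, 18 took the other sign by more than that spread without meeting them, and 4 reversed and met them. Those 4 were with 75th percentile scaling on detected probes: miR-100-5p at 1.95 (CR against SD) and 1.61 (CR against Met), and miR-125a-5p at 1.9 and let-7e-5p at 1.76 (both CR against Met). In that scaling the median of the 178 miRNAs moved by 0.372 (log2) for CR against SD and 0.305 for CR against Met. The differences were 0.391 and 0.285 for miR-100-5p, 0.337 for miR-125a-5p and 0.311 for let-7e-5p, all close to these shifts of all miRNAs.

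With the replicate block the counts were 0, 0 and 0 in the 3 comparisons, and no call changed. The numbers did not pair the mice: 4 of 15 same-numbered pairs had r over 0.1, and 2 of 15 correlated best with their own number. miR-99b-5p had no value with the filter for detection on all arrays or the total gene signal. CR and SD could not be compared on 1 slide. Signal near background limits miR-99b-5p and, in part, miR-100-5p and both arms of miR-125a. All spots of miR-125a-5p were well above background on 11 of 15 arrays, and those of miR-125a-3p on 7. The lowest share of such spots on an array was 60% for miR-125a-5p, 75% for miR-125a-3p and 50% for miR-100-5p.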
